A study of Danio rerio with 2 samples.

Results

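Genes that handle glutathione, thioredoxin and peroxiredoxin were followed through the cells sorted from regenerating zebrafish embryos. Members were all genes of the filtered cell table whose symbol begins with gst and a lower-case letter, prdx, txn, gpx, glrx or srxn and that held at least 50 UMIs over all cells, which gave 51 of 22077 genes. They comprised 16 glutathione S-transferases, 6 peroxiredoxins, 1 sulfiredoxin, 8 glutathione peroxidases, 2 thioredoxins, 2 thioredoxin reductases, 2 thioredoxin-interacting proteins, 10 proteins with a thioredoxin fold and 4 glutaredoxins. The minimum left out gstk4 with 5 UMIs and gstk4.1 with 13 UMIs, and the members just inside it were srxn1 with 51 UMIs and gpx9 with 55 UMIs.

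Tg(mitfa:GFP;crestin:mCherry) embryos were given CVT-10216, an inhibitor of the aldehyde dehydrogenase Aldh2, or its vehicle DMSO from 24 hpf. Embryos of both groups also received MoTP from 24 hpf, a prodrug that kills melanocytes, which was washed out at 64 hpf so that melanocytes regenerated from melanocyte stem cells (McSCs). At 72 hpf, 8 h later, cells that carried GFP, mCherry or both were sorted from pooled embryos and sequenced with the 10x 3′ chemistry as 1 library per condition. The paper describes crestin:mCherry as active in many crest-derived populations. The sorted cells included crest derivatives other than McSCs and also non-crest cells, and why the latter were sorted was not tested.

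Glutathione and thioredoxin are the thiol carriers through which cells return oxidised proteins and peroxides to the reduced state, drawing electrons from NADPH. Glutathione S-transferases join glutathione to reactive compounds, peroxiredoxins and glutathione peroxidases reduce peroxides, and glutaredoxins and thioredoxins reduce disulphides. Glutathione also binds formaldehyde before the dehydrogenase Adh5 oxidises it, which places these genes beside the aldehyde metabolism that CVT-10216 targets. Pigment cells are a site of such chemistry, since melanin synthesis yields quinones and peroxide.

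The filtered table held 6795 cells and 86348575 UMIs from CVT-10216 embryos, and 4488 cells and 58976443 UMIs from DMSO embryos, with medians of 9487 and 8581 UMIs per cell in the CVT-10216 and DMSO libraries. Only 4 barcode sequences occurred in both libraries. Cells were gated by 1 gene each: dct (melanophores), gch2 (xanthophores), pnp4a (iridophore lineage), phox2bb (enteric and autonomic lineage), slc6a5 (glycinergic neurons), fabp7a (glia), mpeg1.1 (macrophages), epcam (epithelium) and actc1b (skeletal muscle). A cell passed a gate with at least 3 UMIs of the gate gene and at least 10% of the mean level of its 100 highest cells, and 446 cells that passed several gates were left out, which is also how doublets were treated. The gates held from 71 cells (actc1b) to 1647 cells (pnp4a) in the CVT-10216 library, and from 16 cells (actc1b) to 1330 cells (phox2bb) in the DMSO library. Among the lists of other markers, at least 8 genes of each list were highest in their own gate in both libraries. Markers that were higher in another gate in both libraries were csf1ra of the gch2 list, fhl2a of the pnp4a list, elavl3 and elavl4 of the phox2bb list, s100b of the fabp7a list and cd74a of the mpeg1.1 list, the last at 0 in the mpeg1.1 gate. In 1 library this also held for trpm1b, impdh1b, insm1a and cx43. Of the myelin genes, mpz and plp1b were at no more than 9.60 CPM in fabp7a cells, whereas mbpa was at 273 CPM in CVT-10216 cells and 132 CPM in DMSO cells. Markers of the phox2bb list summed higher in the slc6a5 gate, with 9445 CPM in CVT-10216 cells and 10715 CPM in DMSO cells, than in the phox2bb gate itself, with 8492 and 5528 CPM in CVT-10216 and DMSO cells. Between the libraries, the log2 ratios of CVT-10216 cells to DMSO cells had a median of 3.15 for the erythroid list, and of -0.87 without cells of over 1% haemoglobin, a median of -0.29 for the dissociation-stress list and of -0.04 for the proliferation list.

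Levels are counts per 1000000 UMIs (CPM) of the summed cells of a gate and library, and 95% intervals are exact Poisson intervals for levels and exact conditional intervals for ratios. These intervals cover counting error only. With 1 library per condition there is no test of CVT-10216 against DMSO, and a difference between the libraries cannot be told apart from a difference between the pools of embryos or the sorts. A 3′ count needs no correction for transcript length, and levels of different genes are set side by side on that basis.

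The genes made up a far larger part of the RNA of gch2 cells than of any other gate. All 51 together took 4.61% of UMIs in CVT-10216 cells and 5.51% in DMSO cells of the gch2 gate. The dct gate followed with 1.27% in CVT-10216 cells and 1.42% in DMSO cells. The remaining gates held between 0.219% and 0.684%. A single gene, gstp1, gave 45.35% of the UMIs of all members and stood at rank 60 of all genes. Without gstp1 the shares in the gch2 gate were 1.37% in CVT-10216 cells and 1.49% in DMSO cells, still the highest of the 9 gates.

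**Figure D1:**
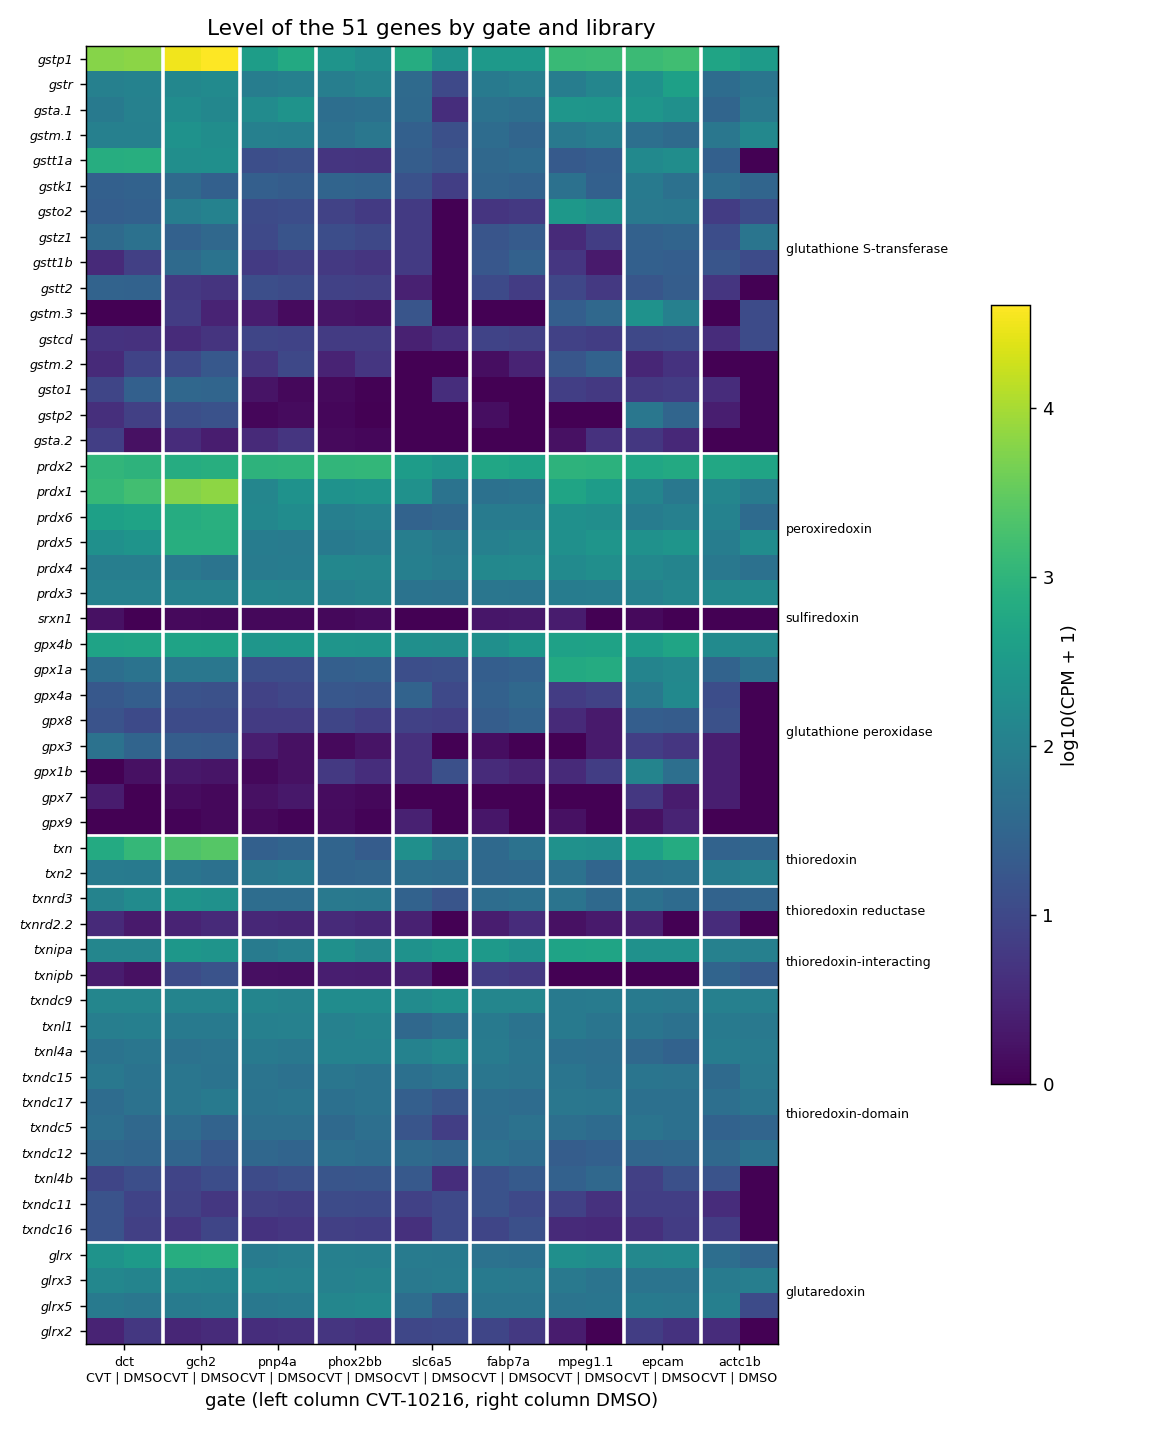
Level of each of the 51 genes (rows, grouped by class) in each gate, as log10(CPM + 1), with the CVT-10216 library in the left column and the DMSO library in the right column of each gate. The gch2 and dct columns hold the brightest cells, led by gstp1, prdx1 and txn, while prdx2 and gpx4b have a similar colour in all gates.

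Of 49 members with at least 50 UMIs in gated cells, 17 were at least 2-fold higher in the gch2 gate than in the other gated cells of the same library, in both libraries and with both counting intervals clear of 0, or 34.7% against 7.48% of all 16488 genes tested. Some of these 17 were higher still in another gate, such as gstt1a in dct cells, gsto2 in mpeg1.1 cells and gstp2 in epcam cells. Other gated cells were summed by UMIs, so the pnp4a and phox2bb gates, which hold the most UMIs, weigh most in them. The epcam gate came next with 12 members, or 24.5% against 12.4% of all genes. The mpeg1.1 gate held 6 members (12.2% against 8.43%) and the dct gate 5 members (10.2% against 6.76%), both near the share of all genes. The fabp7a and actc1b gates held 1 member each, against 8.94% and 3.15% of all genes, and the pnp4a, phox2bb and slc6a5 gates held none, against 5.7%, 14.9% and 16.2% of all genes. In the opposite direction, 18 members were at least 2-fold lower in the phox2bb gate (36.7% against 20.7% of all genes), 17 in the slc6a5 gate (34.7% against 7.75%), 13 in the pnp4a gate (26.5% against 30.1%) and 10 in the fabp7a gate (20.4% against 4.83%). The mpeg1.1 gate had 6 lower members (12.2% against 15.8%), the actc1b gate 5 (10.2% against 2.64%), the epcam gate 4 (8.16% against 11.1%), the gch2 gate 3 (6.12% against 21.6%) and the dct gate 2 (4.08% against 13.3%). The gch2 cells are part of the other gated cells for every other gate, so their high levels enter each of these lower counts. They also hold down higher calls of other gates for genes that are high in gch2 cells. Scarce genes cannot be called lower in a shallow gate, since 0 UMIs still allows 9.24 CPM in slc6a5 cells and 30.2 CPM in actc1b cells of the DMSO library. Members and all genes were not matched for abundance, so how far abundance sets these shares was not tested.

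**Figure D2:**
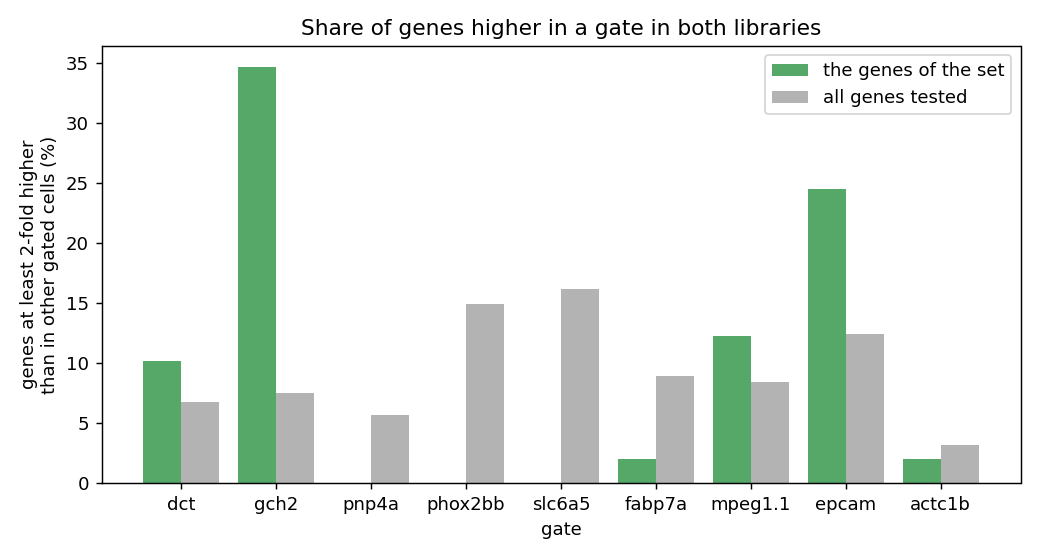
Share of genes at least 2-fold higher in a gate than in the other gated cells in both libraries (vertical axis, percent), for the 49 genes of the set tested (green) and all 16488 genes tested (grey). The set exceeds all genes most in the gch2 gate, at 34.7% against 7.48%, and has no gene in the pnp4a, phox2bb and slc6a5 gates.

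The highest gate was the same in both libraries for 32 of the 51 genes. For 18 of these the counting interval of the highest gate was also clear of the second gate in both libraries: gstp1, prdx1, txn, prdx6, prdx5, glrx, txnrd3 and gstt1b in gch2 cells, gstr, gpx4a, gstm.3, gpx1b and gstp2 in epcam cells, txnipa, gpx1a and gsto2 in mpeg1.1 cells, gstt1a in dct cells and glrx5 in phox2bb cells. For the others the intervals of the first and second gates overlapped in at least 1 library. These intervals do not cover the spread between cells, and the level of gpx1b in epcam cells of the DMSO library depends largely on few cells. The shares of all genes with the same highest gate, or with intervals so separated, were not counted. The 19 genes whose highest gate differed between libraries included prdx2, gpx4b, glrx3 and all proteins with a thioredoxin fold other than txnl1 and txnl4b.

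The glutathione S-transferases were dominated by gstp1, the pi-class enzyme. In gch2 cells gstp1 reached 32475 CPM (32359 to 32591) in the CVT-10216 library and 40189 CPM (39984 to 40396) in the DMSO library, which made it the gene of rank 2 there in both. The dct gate held 5874 CPM of gstp1 in CVT-10216 cells and 6347 CPM in DMSO cells. Levels of gstp1 in epcam cells were 1395 CPM in the CVT-10216 library and 1538 CPM in the DMSO library, close to those of mpeg1.1 cells, which had 1311 and 1374 CPM in CVT-10216 and DMSO cells. In the other 5 gates gstp1 lay between 182 and 709 CPM, so the highest and lowest gates differed 138-fold in the CVT-10216 library and 220-fold in the DMSO library. Every gch2 cell of both libraries held a UMI of gstp1, and the middle of the range of single cells ran from 16316 to 45649 CPM (quartiles, median 27295) in CVT-10216 cells and from 19295 to 54595 CPM (median 34147) in DMSO cells.

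Free RNA from lysed gch2 cells can place such an abundant transcript in other cells. If every gch2 UMI outside the gch2 gate brought gstp1 in the ratio seen inside it, phox2bb cells would hold 147 CPM of gstp1 in the CVT-10216 library and 108 CPM in the DMSO library. They held 236 and 182 CPM in CVT-10216 and DMSO cells. In slc6a5 cells of the DMSO library the observed 231 CPM did not exceed the 238 CPM given by that ratio. In slc6a5 cells of the CVT-10216 library 709 CPM stood against 330 CPM at that ratio. In fabp7a cells it was 297 CPM against 187 CPM in the CVT-10216 library and 294 CPM against 175 CPM in the DMSO library. No gate among these 3 exceeded the ratio by more than 2.15 times, and how much of their gstp1 is free RNA was not tested. In epcam cells gstp1 was 10.4 times that ratio in the CVT-10216 library and 19.7 times in the DMSO library, and in mpeg1.1 cells 8.04 and 16.9 times in the CVT-10216 and DMSO libraries.

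The other transferases divided among the gates. The theta-class gene gstt1a was a dct gene, with 732 CPM (690.5 to 775) in CVT-10216 cells and 771 CPM (730.3 to 814) in DMSO cells, against 188 and 194 CPM in gch2 cells of the CVT-10216 and DMSO libraries. In pnp4a cells gstt1a was at 12.02 CPM in the CVT-10216 library and 12.9 CPM in the DMSO library. Its relative gstt1b lacked that dct level, with 4 UMIs in CVT-10216 cells and 11 UMIs in DMSO cells of the dct gate, and was highest in gch2 cells at 37.5 and 56.6 CPM in the CVT-10216 and DMSO libraries. The third theta-class gene, gstt2, was again highest in dct cells, at 28.1 CPM in CVT-10216 cells and 26.9 CPM in DMSO cells. The zeta-class gstz1, known in mammals as maleylacetoacetate isomerase of tyrosine breakdown, was at 38.2 and 51.4 CPM in dct cells of the CVT-10216 and DMSO libraries. Both the dct and the gch2 gate held at least 2-fold more gstz1 than the other gated cells. In the DMSO library its highest level, 60.4 CPM, was in the 16 actc1b cells.

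Neighbouring copies had different leading gates. RefSeq places gstm.1, gstm.2 and gstm.3 next to one another, as it does gstp2 and gstp1, and gsto1 and gsto2 (order of genes only, assembly GRCz12tu, in which all 51 members were found). Of the mu-class genes, gstm.1 was highest in gch2 cells, at 225 CPM in the CVT-10216 library and 181 CPM in the DMSO library. By contrast gstm.3 was an epcam gene, with 219 CPM (204 to 236) in CVT-10216 cells and 99.6 CPM (84.8 to 116) in DMSO cells, and had 0 UMIs in dct cells of both libraries, which allows up to 1.88 CPM in CVT-10216 cells and 1.75 CPM in DMSO cells. The middle copy gstm.2 was highest in mpeg1.1 cells, at 16.2 and 27.4 CPM in the CVT-10216 and DMSO libraries. Of the omega-class pair, gsto1 was highest in gch2 cells at 34.1 CPM in the CVT-10216 library and 30.5 CPM in the DMSO library, and gsto2 in mpeg1.1 cells at 280 CPM (255 to 308) in the CVT-10216 library and 213 CPM (183 to 247) in the DMSO library. The second pi-class gene gstp2 was highest in epcam cells, at 66.0 CPM in CVT-10216 cells and 30.7 CPM in DMSO cells. The sequences of these copies were not compared here. Copies of a gene can share reads, and how the counting treated them is not given in the sources used here, so their separate levels are uncertain.

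Of the remaining transferases, gstr was highest in epcam cells (212 CPM in CVT-10216 cells, 405 CPM in DMSO cells), as was the mitochondrial kappa-class gstk1 (74.3 and 52.3 CPM in CVT-10216 and DMSO cells). The alpha-class gsta.1 was high in epcam, mpeg1.1, gch2 and pnp4a cells, with 262, 257, 169 and 165 CPM in the CVT-10216 library and 202, 247, 136 and 227 CPM in the DMSO library. Its neighbour gsta.2 stayed at or below 6.25 CPM in every gate, and gstcd, which carries only a transferase-like domain, at or below 10.1 CPM.

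Peroxiredoxins showed both a shared and a restricted pattern. The cytosolic prdx2 was expressed in every gate, and was at least 2-fold lower in slc6a5 cells than in the other gated cells of both libraries. Extremes of prdx2 were 345 CPM in slc6a5 cells and 1091 CPM in dct cells of the CVT-10216 library. In the DMSO library they were 256 CPM in slc6a5 cells and 1118 CPM in phox2bb cells. The close relative of prdx2, prdx1, was a gch2 gene, with 5647 CPM in CVT-10216 cells and 6498 CPM in DMSO cells. The dct gate followed, with 1200 and 1598 CPM of prdx1 in CVT-10216 and DMSO cells. The extremes of prdx1 differed 109-fold across the gates of the CVT-10216 library and 117-fold across those of the DMSO library, against 3.17-fold and 4.37-fold for prdx2. The same 2 gates led for prdx6, the 1-Cys enzyme that uses glutathione, at 717 CPM in CVT-10216 cells and 815 CPM in DMSO cells of the gch2 gate. They were followed by 412 and 474 CPM in dct cells of the CVT-10216 and DMSO libraries. The mitochondrial and peroxisomal prdx5 stood at 780 CPM in CVT-10216 cells and 754 CPM in DMSO cells of the gch2 gate and at no more than 256 CPM elsewhere. The mitochondrial prdx3 (52.4 to 151 CPM) and prdx4 of the endoplasmic reticulum (50.3 to 191 CPM) varied little between gates. Sulfiredoxin srxn1, which restores overoxidised peroxiredoxins, did not exceed 1.25 CPM in any gate.

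**Figure D3:**
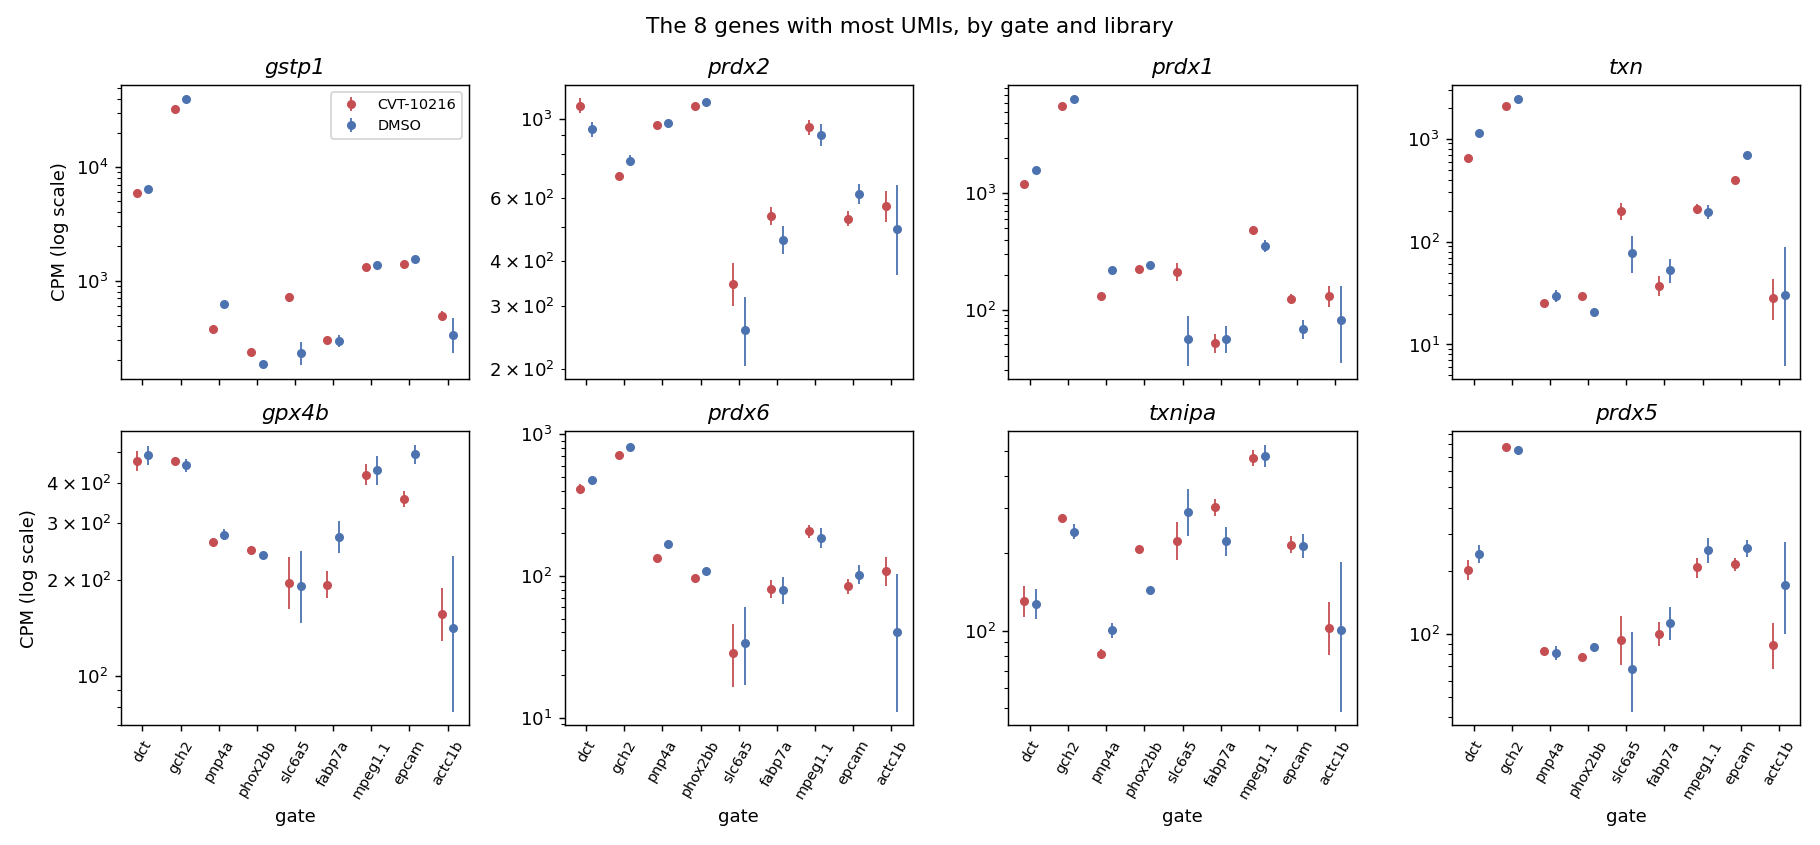
Level (CPM, log scale) of the 8 genes with most UMIs in each gate, with CVT-10216 (red) left of DMSO (blue) and exact 95% Poisson intervals as bars. Both libraries give the same order of gates for gstp1, prdx1 and txn at the top, with gch2 first and dct second, whereas prdx2 and gpx4b span less than 5-fold.

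Of the glutathione peroxidases, gpx4b was the most even across gates, and others had different leading gates. The gpx4 enzymes reduce lipid peroxides. The copy gpx4b was expressed in every gate, between 156 CPM in actc1b cells and 471 CPM in gch2 cells of the CVT-10216 library, and between 141 CPM in actc1b cells and 493 CPM in epcam cells of the DMSO library. The copy gpx4a was 2.41 (log2) higher in epcam cells than in other gated cells of the CVT-10216 library and 3.43 higher in the DMSO library, with 68.1 and 154 CPM in CVT-10216 and DMSO cells. The gpx1 enzymes reduce hydrogen peroxide in the cytosol. Of these, gpx1a was highest in mpeg1.1 cells, at 613 CPM (576 to 653) in the CVT-10216 library and 676 CPM (622 to 734) in the DMSO library. Its second gate was epcam, at 120 CPM in CVT-10216 cells and 143 CPM in DMSO cells, also at least 2-fold above the other gated cells. The copy gpx1b was highest in epcam cells, at 117 CPM (105.5 to 129) in CVT-10216 cells and 48.0 CPM (37.9 to 59.8) in DMSO cells. Without the 2 highest cells of each library its log2 ratio of CVT-10216 over DMSO was 3.12 there, against 1.28 with them. The DMSO level thus depends largely on those cells, which the counting interval does not cover. In thinned cells of 4000 UMIs, gpx1a was found in 75.7% of mpeg1.1 cells of the CVT-10216 library and 83.1% of those of the DMSO library, against 3.87% of pnp4a cells of the CVT-10216 library and 3.93% of those of the DMSO library. Without thinning these shares were 91.4% and 94.8% of mpeg1.1 cells, and 15.9% and 14.1% of pnp4a cells, in the CVT-10216 and DMSO libraries.

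The secreted plasma enzyme gpx3 was highest in dct cells, followed by gch2 cells. In the third pigment gate, pnp4a, gpx3 was at least 2-fold lower than in the other gated cells of both libraries. It had 53.8 CPM (43.0 to 66.4) in CVT-10216 cells and 29.2 CPM (21.7 to 38.5) in DMSO cells of the dct gate. The gch2 gate had 21.9 CPM of gpx3 in CVT-10216 cells and 20.3 CPM in DMSO cells. It did not exceed 6.27 CPM in the other gates. Of the endoplasmic reticulum enzymes, gpx8 was highest in fabp7a and epcam cells, with 21.9 and 23.0 CPM in the CVT-10216 library and 28.2 and 20.9 CPM in the DMSO library, and gpx7 reached only 4.48 CPM. No gate of gpx9 exceeded 1.84 CPM.

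Thioredoxin txn had its highest level in gch2 cells and its second highest in dct cells, as gstp1 and prdx1 did. It had 2070 CPM in CVT-10216 cells and 2417 CPM in DMSO cells of the gch2 gate, and 645 and 1144 CPM in CVT-10216 and DMSO cells of the dct gate. Epcam cells followed, with 396 CPM in the CVT-10216 library and 687 CPM in the DMSO library, whereas pnp4a cells had 25.1 and 29.7 CPM in the CVT-10216 and DMSO libraries. A second thioredoxin gene is written TXN in the files and was no member because of its capitals. RefSeq gives it as txna and txn as txnb. With 191725 UMIs against 42197 UMIs for txn it was the more abundant of the pair, and it lacked the restriction of txn: pnp4a cells had 1471 CPM of TXN in the CVT-10216 library and 1489 CPM in the DMSO library, near the 1712 and 1731 CPM of gch2 cells in the CVT-10216 and DMSO libraries. Mitochondrial txn2 lay between 29.8 and 101 CPM.

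Of the reductases that return electrons from NADPH to thioredoxin, txnrd3 was highest in gch2 cells, at 240 CPM in the CVT-10216 library and 212 CPM in the DMSO library, and txnrd2.2 stayed at or below 2.82 CPM. The thioredoxin-interacting protein txnipa, which binds thioredoxin and limits glucose uptake in mammals, had its highest level in mpeg1.1 cells, at 469 CPM in the CVT-10216 library and 481 CPM in the DMSO library, and its lowest in pnp4a cells, at 81.1 and 100.4 CPM in the CVT-10216 and DMSO libraries. Its copy txnipb was at 10.5 CPM in CVT-10216 cells and 14.02 CPM in DMSO cells of the gch2 gate and highest in actc1b cells, where the level of the DMSO library rests on 2 UMIs.

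The 10 proteins with a thioredoxin fold spanned less than most other members. Levels of txndc9, a cochaperone of tubulin and actin folding, ran from 70.7 to 203 CPM. The spliceosome component txnl4a ran from 27.0 to 139 CPM, being highest in phox2bb and slc6a5 cells, and its relative txnl4b was highest in mpeg1.1 cells at 26.2 CPM in the CVT-10216 library and 34.6 CPM in the DMSO library. Of txnl1, txndc15, txndc17, txndc5 and txndc12 none was 2-fold higher in any gate, while txnl1, txndc17 and txndc5 were 2-fold lower in slc6a5 cells and txnl4a in epcam cells. The gates of txndc5 differed 3.83-fold in the CVT-10216 library and 8.55-fold in the DMSO library. The protein disulphide isomerase relatives txndc11 and txndc16 did not exceed 13.8 CPM.

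Glutaredoxins split in the same way as peroxiredoxins. The cytosolic glrx was a gch2 gene, with 746 CPM in CVT-10216 cells and 812 CPM in DMSO cells, 2.92 (log2) above the other gated cells in the CVT-10216 library and 2.96 above them in the DMSO library. Of the iron-sulphur cluster proteins, glrx3 was nearly even (57.0 to 137 CPM) and glrx5 was highest in phox2bb cells, at 129 CPM (124 to 134) in the CVT-10216 library and 141 CPM (137 to 145) in the DMSO library. Mitochondrial glrx2 did not exceed 9.24 CPM.

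The libraries were compared within each gate to ask whether the genes differ when Aldh2 is inhibited. Among 292 pairs of a member and a gate with at least 50 UMIs, 18 were at least 1.5-fold higher in CVT-10216 cells and 18 at least 1.5-fold lower. These are 6.16% in each direction, against 10.0% of all gene and gate pairs for higher and 4.72% for lower. Medians of the members lay between -0.09 and 0.10 (log2) over the gates, and the medians of all genes between -0.07 and 0.13. Counting intervals lay above 0 for 44 pairs and below 0 for 65 pairs. In pnp4a cells 28 of 42 members were below 0, with 15 intervals below 0 and 1 above, at a median of -0.09 against 0.03 for all genes. In dct cells 22 of 34 were below 0, with 9 intervals below and 2 above, at a median of -0.09 against 0.00 for all genes. The shares of all genes with a ratio below 0, or with an interval clear of 0, were not counted. Some genes were past 1.5-fold in several gates, namely prdx1 in 4 gates and gstm.2, txn and gstm.3 in 3 gates each. The genes srxn1, gpx9 and gpx7, had too few UMIs in every gate to be compared.

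**Figure D4:**
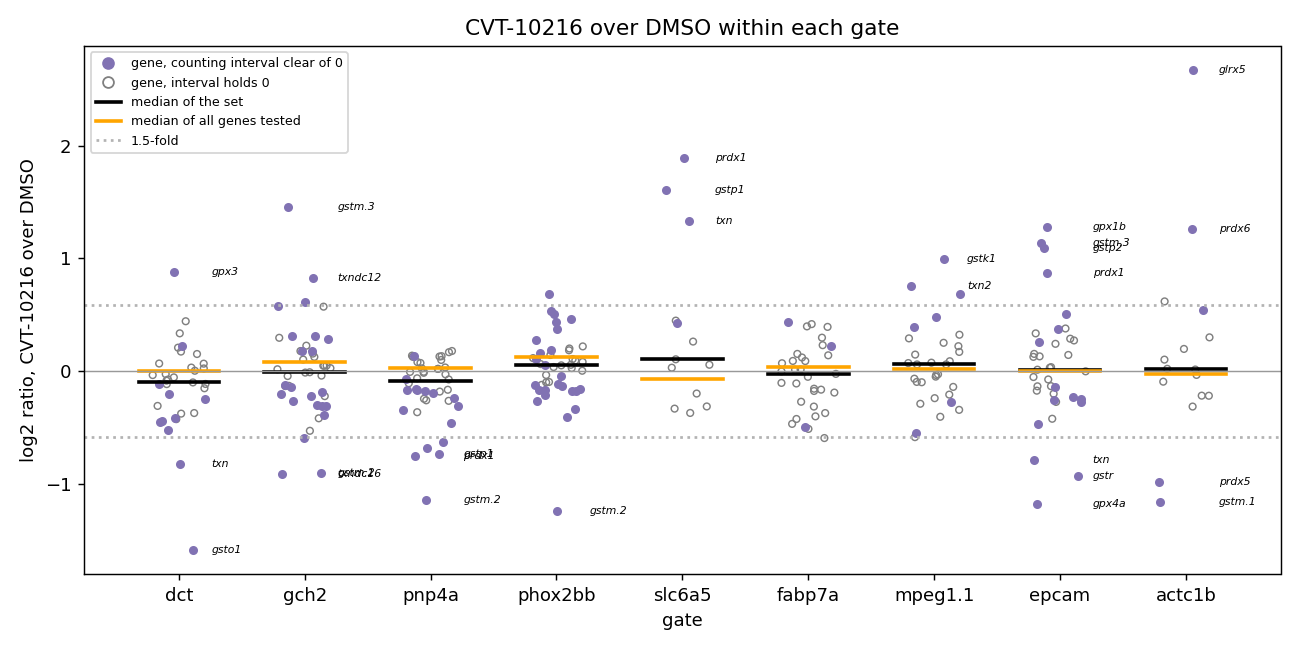
Ratio (log2) of CVT-10216 over DMSO for each gene of the set in each gate. Filled points have a 95% counting interval clear of 0, black and orange lines are the medians of the set and of all genes tested, and dotted lines mark 1.5-fold. Medians of the set lie between -0.09 and 0.10, and the points farthest from 0 are in the slc6a5 and actc1b gates.

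In dct cells, 1 of 34 members was 1.5-fold higher (2.94% against 4.71% of all genes) and 2 were lower (5.88% against 4.41%). Thioredoxin txn had 645 CPM in CVT-10216 cells and 1144 CPM in DMSO cells, a log2 ratio of -0.83 (-0.94 to -0.72). It remained lower, at -0.60, when every cell was weighted equally. The second thioredoxin gene TXN had a ratio of -0.12 (-0.21 to -0.03). The reductase txnrd3, glrx and prdx1 were also lower in that gate, though by less than 1.5-fold, with ratios of -0.52 (-0.80 to -0.25) for txnrd3, -0.45 (-0.65 to -0.26) for glrx and -0.41 (-0.50 to -0.33) for prdx1. The other gene past 1.5-fold was gsto1, with 13 UMIs in CVT-10216 cells and 43 UMIs in DMSO cells (-1.59, -2.65 to -0.71). In the opposite direction gpx3 had a ratio of 0.87 (0.36 to 1.41) from 86 UMIs in CVT-10216 cells and 50 UMIs in DMSO cells, which was 0.43 with cells weighted equally. Haemoglobin UMIs were at 7119 CPM in CVT-10216 cells and 66.6 CPM in DMSO cells of this gate, and without the single cell that held over 1% of haemoglobin the txn ratio was -0.82. The proliferation list was higher in this gate, at a median of 0.54 with 4 of 8 genes past 1.5-fold, and the dissociation-stress list lower, at -0.22 with 5 of 14. Their part in the ratios was not tested. In the same gate prdx2 was higher at 0.22, and gstp1 had a ratio of -0.11.

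In gch2 cells, 3 of 43 members were higher (6.98% against 8.06%) and 3 lower (6.98% against 1.83%). Abundant genes of this gate were slightly lower in CVT-10216 cells, with ratios of -0.31 for gstp1, -0.22 for txn, -0.20 for prdx1 and -0.18 for prdx6, while prdx5 was at 0.05. The 3 genes past 1.5-fold on the low side were gstm.2 (9.56 CPM in CVT-10216 cells, 17.9 CPM in DMSO cells), txndc16 (4.41 and 8.24 CPM) and gstt1b (37.5 and 56.6 CPM). On the high side gstm.3 had 52 UMIs in CVT-10216 cells and 7 UMIs in DMSO cells, txndc12 of the endoplasmic reticulum had a ratio of 0.83 (0.44 to 1.25) and gstk1 one of 0.61 (0.28 to 0.97). Haemoglobin UMIs were at 700 CPM in CVT-10216 cells and 77.0 CPM in DMSO cells of this gate, with 7 of 7 erythroid genes higher. In the CVT-10216 library 1 cell of the gate held over 1% of haemoglobin. Without that cell the ratios were 1.45 for gstm.3, 0.83 for txndc12, -0.91 for txndc16 and -0.90 for gstm.2. The part of haemoglobin RNA in the remaining cells was not tested. The dissociation-stress list had a median of -0.35, with 4 of 14 genes lower and none higher, and its part was not tested.

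In pnp4a cells, none of 42 members was 1.5-fold higher (against 4.44% of all genes) and 5 were lower (11.9% against 5.04%). They were gstp1, with 372 CPM (364 to 379) in CVT-10216 cells and 619 CPM (602 to 636) in DMSO cells, prdx1, with 130 and 219 CPM in CVT-10216 and DMSO cells, and the scarcer gstm.2, gstz1 and gsta.2. The ratios were -0.74 for gstp1, -0.75 for prdx1 and -1.15 for gstm.2. Superoxide dismutase sod1 showed the same pattern, with 382 CPM in CVT-10216 cells and 620 CPM in DMSO cells (-0.70, -0.75 to -0.65).

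Cells with a UMI of fhl2b, an iridophore gene, were a smaller share of the pnp4a gate in the CVT-10216 library (174 of 1647 cells, 10.6%) than in the DMSO library (168 of 630 cells, 26.7%). The division by fhl2b was chosen after these values were seen, on a gene that itself differed between the libraries, at 40.7 CPM in CVT-10216 cells and 132 CPM in DMSO cells of the gate. Cells with fhl2b were rich in gstp1, with 1175 CPM in CVT-10216 cells and 1554 CPM in DMSO cells, a ratio of -0.40 (-0.47 to -0.34). Cells without fhl2b had 258 CPM of gstp1 in the CVT-10216 library and 206 CPM in the DMSO library, a ratio of 0.32 (0.23 to 0.41), so the direction turned. The gch2 transcript itself was at 131 CPM in CVT-10216 cells and 66.7 CPM in DMSO cells without fhl2b. With fhl2b it was likewise higher, at 185 CPM in CVT-10216 cells and 118 CPM in DMSO cells, though gstp1 was lower there. The part of gch2 RNA in the gstp1 ratios was not tested. Cells with fhl2b also differed in the level of fhl2b itself, at 328 CPM in CVT-10216 cells and 432 CPM in DMSO cells. For prdx1 the ratio was -0.40 (-0.51 to -0.29) with fhl2b and 0.13 (-0.01 to 0.28) without it, and for sod1 -0.43 and -0.05. For gsta.1, at -0.46 in the whole gate, the ratio was -0.27 (-0.40 to -0.13) with fhl2b and -0.22 (-0.32 to -0.12) without. For gstm.2 the ratio was -0.71 (-1.51 to 0.06) with fhl2b and, without it, -1.01 (-1.57 to -0.41), from 76 UMIs in CVT-10216 cells and 40 UMIs in DMSO cells. Dissociation-stress genes were also lower in CVT-10216 cells of this gate, with a list median of -0.35, and their part in these ratios was not tested.

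**Figure D5:**
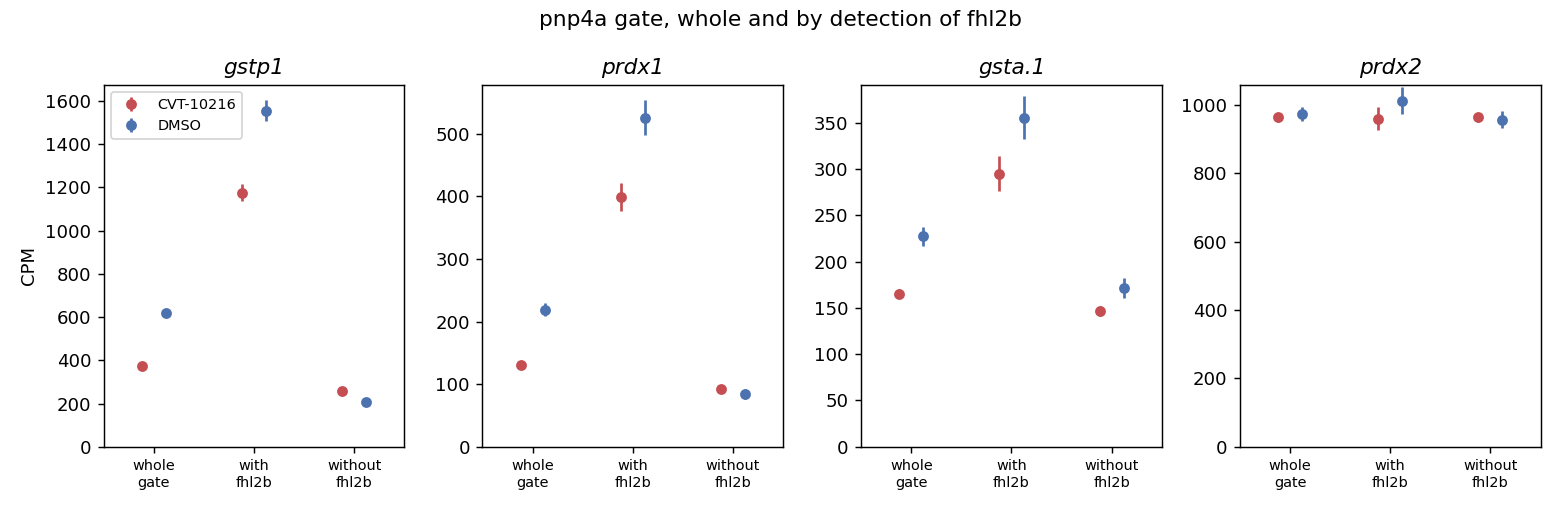
Level (CPM) of gstp1, prdx1, gsta.1 and prdx2 in the whole pnp4a gate and in its cells with and without a UMI of fhl2b, with CVT-10216 (red) left of DMSO (blue) and exact 95% Poisson intervals as bars. Cells without fhl2b hold 258 CPM of gstp1 in the CVT-10216 library and 206 CPM in the DMSO library, opposite to the whole gate, whereas gsta.1 is lower with CVT-10216 in both kinds of cell.

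In phox2bb cells, 1 of 43 members was higher (2.33% against 18.4% of all genes), namely gpx1b at 4.92 CPM in CVT-10216 cells and 3.06 CPM in DMSO cells, and 1 was lower (2.33% against 1.13%), again gstm.2, at 1.83 and 4.37 CPM in CVT-10216 and DMSO cells. Just inside 1.5-fold, txnipa had 208 CPM in CVT-10216 cells and 143 CPM in DMSO cells, a ratio of 0.53 (0.48 to 0.59). With TMM scaling that ratio was 0.34. The neuronal markers of the gate were also higher, with elavl4 at 948 CPM in CVT-10216 cells and 415 CPM in DMSO cells, elavl3 at 942 and 589 CPM and vipb at 2814 and 1539 CPM, while ascl1a was at 230 and 266 CPM. Their part in the ratios was not tested. The ratio of gpx1b, 0.68 in all cells, was 0.08 with cells thinned to 4000 UMIs. The gch2 transcript was at 115 CPM in CVT-10216 cells and 71.3 CPM in DMSO cells of this gate. In fabp7a cells none of 33 members was higher (against 9.86%) and 1 was lower (3.03% against 6.06%), which was gstt1b, with an interval that holds 0. Here txnipa was again at a higher level, with 303 CPM in CVT-10216 cells and 223 CPM in DMSO cells (0.44, 0.22 to 0.66), and gpx4b at a lower one, with 193 and 272 CPM in CVT-10216 and DMSO cells (-0.50, -0.72 to -0.28). The glial gene gfap was at 839 CPM in CVT-10216 cells and 1577 CPM in DMSO cells of this gate, the proliferation list had a median of -0.37 and the dissociation-stress list one of -0.21, and their part was not tested.

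In epcam cells, 4 of 37 members were higher (10.8% against 11.2% of all genes) and 3 lower (8.11% against 10.4%). The higher genes were gpx1b (1.28, 0.93 to 1.65), gstm.3 (1.14, 0.89 to 1.39), gstp2 (1.09, 0.65 to 1.58) and prdx1 (0.87, 0.57 to 1.19). The lower ones were gpx4a (-1.18, -1.45 to -0.92), gstr (-0.93, -1.09 to -0.78) and txn (-0.79, -0.91 to -0.68). These shares are near those of all genes. Without the 2 highest cells of each library the ratio of gpx1b was 3.12, and with thinned cells that of gstr was -0.39. Of the 9 epithelial markers, krt4, krt5, cldni, cldn1 and tp63 were higher in CVT-10216 cells and cldnb, cdh1, krt8 and krt91 lower, with tp63, a factor of basal epithelium, at 223 CPM in CVT-10216 cells and 130 CPM in DMSO cells and cdh1 at 271 and 376 CPM. The dissociation-stress list had a median of -0.32 and the proliferation list one of 0.22. Their part in the ratios was not tested.

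In mpeg1.1 cells, 3 of 31 members were higher (9.68% against 7.01%) and 1 lower (3.23% against 4.8%). The higher genes were gstk1 (81 UMIs in CVT-10216 cells, 21 UMIs in DMSO cells), txn2 (85 and 26 UMIs) and txnrd3 (93 and 30 UMIs). The lower gene gstm.3 had an interval that holds 0. With thinned cells the ratio of txn2 was 0.46, against 0.76 in all cells. Haemoglobin UMIs were at 7309 CPM in CVT-10216 cells and 42.9 CPM in DMSO cells of the gate, and without the cell of over 1% haemoglobin gstk1 had a ratio of 1.02, against 0.99 with it. The dissociation-stress list had a median of -0.56 in this gate, with 4 of 11 genes lower, and its part was not tested. The gate's leading genes differed little, with a log2 ratio between libraries of -0.14 for gpx1a and 0.39 for gsto2.

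In slc6a5 cells, 3 of 13 members were higher (23.1% against 6.75%) and none lower (against 7.02%). These were gstp1 (709 CPM in CVT-10216 cells, 231 CPM in DMSO cells), prdx1 (211 and 55.5 CPM) and txn (197 and 77.0 CPM), the leading genes of gch2 cells. Dissociation-stress genes summed to 1270 CPM in CVT-10216 cells and 767 CPM in DMSO cells of this gate. In the CVT-10216 library 76.2% of the UMIs of gstp1 and 76.2% of those of prdx1 came from 2 of the 124 cells. Without the 2 highest cells of each library the ratio of gstp1 was -0.21, against 1.61 with them, and that of prdx1 was 0.23, against 1.89. For txn, 75.8% of CVT-10216 cells and 87.8% of DMSO cells held no UMI, and the highest CVT-10216 cell was at 6291 CPM. The txn ratio without its highest cells was not computed. In actc1b cells, where the DMSO library had 16 cells, 3 of 16 members were higher (18.8% against 17.1%) and 2 lower (12.5% against 14.3%). The widest ratio there, of glrx5, rests on 68 UMIs in CVT-10216 cells and 1 UMI in DMSO cells. Muscle markers summed to 22648 CPM in CVT-10216 cells and 12362 CPM in DMSO cells of the actc1b gate. The proliferation list summed to 521 CPM in CVT-10216 cells and 80.5 CPM in DMSO cells. Their part in the ratios was not tested.

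Some genes compared in at least 2 gates had the same sign in all of them. The share of all genes that did so was not counted. The ratio was below 0 in 7 of 7 gates for gstr, with 5 intervals clear of 0, in 7 of 7 gates for gpx1a, with 1 interval clear of 0, and in 3 of 3 gates for gstm.2, with all 3 clear of 0. It was also below 0 in 5 of 5 gates for txnl4b, with no interval clear of 0. It was above 0 in 7 of 7 gates for txndc15, with 1 interval clear of 0, and in 3 of 3 gates for txndc11, with none. In 2 of 2 gates it was above 0 for gpx1b, with 2 intervals clear of 0, for gpx3, with 1, and for txnrd2.2, with none. Since all gates of a library come from 1 sort and 1 library, these gates do not replicate one another.

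The wider thiol pathway was read from lists of genes. For glutathione synthesis, reduction and turnover, 8 of 60 gene and gate pairs were 1.5-fold higher in CVT-10216 cells and 4 lower, against 10.0% and 4.72% of all pairs, with a median of 0.01. The highest were slc3a2b, the heavy chain of the cystine transporter, at 85.7 CPM in CVT-10216 cells and 39.7 CPM in DMSO cells of the dct gate and 29.3 and 11.7 CPM in those of the epcam gate. The lowest were chac1, which degrades glutathione, in actc1b cells (-1.20) and slc3a2a in fabp7a cells (-1.04). Glutathione reductase gsr was at 66.3 CPM in CVT-10216 cells and 98.2 CPM in DMSO cells of the dct gate, and the rate-limiting subunit gclc at 46.3 and 49.7 CPM.

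NADPH-supplying enzymes had 5 of 82 pairs higher and 6 lower, against 10.0% and 4.72% of all pairs, with a median of -0.002. Isocitrate dehydrogenase idh1 was at 72.1 CPM in CVT-10216 cells and 35.5 CPM in DMSO cells of the phox2bb gate, and pgd of the pentose phosphate pathway at 128 and 199 CPM in CVT-10216 and DMSO cells of the dct gate. The extremes were tkta, at 1.71 CPM in CVT-10216 cells and 0.75 CPM in DMSO cells of the phox2bb gate and 7.77 and 52.7 CPM in those of the fabp7a gate, and nnt in actc1b cells at -0.88. Nrf2 is the factor that induces many of these genes under oxidative stress. Its list had 6 of 66 pairs higher and 2 lower, against 10.0% and 4.72% of all pairs, with a median of 0.03. Haem oxygenase hmox1a was at 1.63 CPM in CVT-10216 cells and 6.94 CPM in DMSO cells of the pnp4a gate and at 2.97 and 1.25 CPM in those of the phox2bb gate. The autophagy receptor sqstm1 was at 282 CPM in CVT-10216 cells and 449 CPM in DMSO cells of the dct gate. The highest other ratio of the list was that of nfe2l1b in fabp7a cells, at 1.05.

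Enzymes that handle superoxide and hydrogen peroxide had 2 of 31 pairs higher and 2 lower, against 10.0% and 4.72% of all pairs. Their median was -0.02. The lowest were sod1 of pnp4a cells, given above, and the mitochondrial sod2 of dct cells, at 16.3 CPM in CVT-10216 cells and 28.05 CPM in DMSO cells. Genes of selenoprotein synthesis and repair supply the selenium enzymes of the glutathione peroxidase class. They had 4 of 33 pairs higher and 3 lower, against 10.0% and 4.72% of all pairs, with a median of 0.07. The selenium carrier selenop was at 35.7 CPM in CVT-10216 cells and 9.34 CPM in DMSO cells of the gch2 gate. The methionine sulphoxide reductases gave the lowest ratios, -0.96 for msrb1a in phox2bb cells and -0.72 for msra in pnp4a cells. The list for clearance of formaldehyde and other carbonyls held adh5 beside aldh2.1, aldh2.2, akr1b1.1 and others, and not all of its genes depend on glutathione. It had 5 of 65 pairs higher and 1 lower, against 10.0% and 4.72% of all pairs, with a median of -0.05. The formaldehyde dehydrogenase adh5 was at 158 CPM in CVT-10216 cells and 137 CPM in DMSO cells of the dct gate, and at 208 and 258 CPM in those of the gch2 gate. The inhibited enzyme's own genes, aldh2.1 and aldh2.2, were at 99.5 and 104 CPM in CVT-10216 cells and 64.9 and 59.0 CPM in DMSO cells of the dct gate. In that gate 2 of 9 genes of the list were 1.5-fold higher. In each of the gch2, pnp4a and phox2bb gates none of the 9, aldh2.1 and aldh2.2 among them, was 1.5-fold higher or lower. The aldose reductase akr1b1.1 had the extremes of this list, 1.87 in mpeg1.1 cells and -1.14 in epcam cells.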

How the data were processed

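The authors aligned and counted the reads of both libraries against GRCz11, and per the labels' processing notes with Cell Ranger 2.1.1 and 3.1.0, and deposited UMI counts per gene and barcode without normalization, for all barcodes and for filtered cells. All values were whole numbers. The library of a cell was taken from its barcode suffix. The deposited counts of 1 gate and library were summed in Python 3.11.15 (numpy 2.4.6, scipy 1.17.1, pandas 2.3.3) and divided by their total. Ratios used a pseudocount of 0.5 UMIs. Calls between gates needed 2-fold and intervals clear of 0 in both libraries, a condition added after seeing that the pseudocount alone raises scarce genes in shallow gates, and calls between libraries needed 1.5-fold and 50 UMIs. Scripts were tested on simulated data. No test of condition was made, since each condition has 1 library. The members, lists and tests were chosen with earlier results of these data known. Named genes were the 8 with most UMIs, up to 3 per gate by the lower of both libraries' gate ratio, and up to 2 highest and 2 lowest CVT-10216 ratios per gate and per list whose interval excludes 0. Other genes were named after their values were seen. TMM factors came from edgeR 4.0.16 (R 4.3.3). Alternatives varied the gate, scaling, cell weights, depth and UMI minimum. No per-sample column was left unused.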

Additional observations from a re-analysis of the deposited data

Results flagged for a closer look

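The abundant genes gstp1, prdx1 and txn were past 1.5-fold in opposite directions in different gates, with counting intervals clear of 0. The difference between gates was not tested. For gstp1 the log2 ratio of CVT-10216 over DMSO was 1.61 in the slc6a5 gate and -0.74 in the pnp4a gate. For prdx1 it was 1.89 in the slc6a5 gate, 0.87 in the epcam gate and -0.75 in the pnp4a gate. For txn it was 1.34 in the slc6a5 gate, -0.83 in the dct gate and -0.79 in the epcam gate. The slc6a5 values of gstp1 and prdx1 rest on 2 cells of the CVT-10216 library, and 75.8% of the slc6a5 cells of that library held no UMI of txn. The pnp4a values of cells with and without fhl2b are given above.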

How the results depend on the processing

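Of the main results, 247 of the recomputed values were classed as the same, 8 as moved and 3 as reversed. Of the values of single genes, 139 were classed as the same, 20 as moved and 1 as reversed. A value near 0 could change sign without being classed as reversed, so these counts do not show that direction was kept. Of the gates, only dct, gch2 and mpeg1.1 held a cell of over 1% haemoglobin. Leaving out such cells could not change the ratios between libraries in the other gates, and those values still count as the same. How far a value could move and still be classed as the same is not stated here. The counts therefore do not measure how robust the results are. The median of the erythroid list was 3.15, but -0.14 with the gate limit at 20%, -0.19 with no minimum on UMIs and -0.87 without cells of over 1% haemoglobin, and it was 2.27 with cells weighted equally, 4.41 with thinned cells and 5.14 from all barcodes. The median of the members in phox2bb cells was 0.05, and -0.15 with TMM scaling. Pairs past 1.5-fold numbered 36, against 22 with thinned cells, 61 with at least 20 UMIs and 128 with no minimum. The dissociation-stress median of -0.29 was -0.081 with thinned cells. Without the 2 highest cells of each library gstp1 of the slc6a5 gate was at -0.21. The cause of these changes was not tested. The settings on haemoglobin, the 2 highest cells, fhl2b and the interval between gates were chosen after seeing the data. The number of genes with the same highest gate ran from 28 to 38. Thinning left out 76 of 124 slc6a5 cells of the CVT-10216 library and 66 of 90 of the DMSO library. No paired analysis was possible because each condition has 1 library.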
